A study of Mus musculus with 10 samples.

Results

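*Upk1b*, *Slc2a5*, *Lrba*, *Csmd3*, *Thrsp*, *Gp9*, *Klk8* and *0610040J01Rik* were followed across adult and cultured mouse microglia as a group of 8 genes, out of 18292 gene symbols listed in the tables. They were selected on measured values of these same libraries, as genes that lead adult cells over the cultures, so the difference between adult and culture is described here with no test. All 8 passed the filter on low counts and were among the 12157 genes tested. The label of the group is genes lost in every culture. *In vitro*, 7 of the 8 lay at or below 1.11% of the adult mean and *0610040J01Rik* at 6.58%. The selection drew on these same values, so they do not test the label. It did not hold as written for the slices, where *0610040J01Rik* stood at 28.4% of the adult mean after 1 week and *Thrsp* at 11.3% after 3 weeks. No library of pup microglia before culture was at hand, so a loss from a starting level cannot be read.

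Microglia are the resident macrophages of the brain, and signals from the surrounding tissue are known to maintain much of the gene expression that sets them apart from other macrophages. Such genes are known to fall when microglia are moved into culture. *Slc2a5* encodes the fructose transporter GLUT5, which in the brain is known as a microglial gene. *Thrsp* encodes a protein that responds to thyroid hormone and carbohydrate and takes part in fatty acid synthesis. The other members are best known outside the brain or in neurons: *Upk1b* encodes a tetraspanin of the bladder epithelium, *Gp9* the glycoprotein IX subunit of the platelet receptor for von Willebrand factor, *Csmd3* a large membrane protein with CUB and sushi domains, *Lrba* a BEACH domain protein of vesicle traffic, and *Klk8* the secreted serine protease neuropsin.

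Single cell RNA was measured in 10 libraries, with 2 libraries in each of 5 groups, all from C57BL/6 mice and all sorted as live cells with intermediate CD45 and high CD11b. Adult microglia came directly from the brains of mice aged 10 to 15 weeks. *In vitro* microglia were collected from the medium of mixed glial cultures of cortex from pups of postnatal day 2, at day 22 of culture. Slice microglia came from coronal brain slices of 300 µm without cerebellum, cut from pups of postnatal days 1 to 4 and kept at 35 °C for 1 day (22 to 26 h), 1 week or 3 weeks (weeks of 7 ± 1 days). Several slices were pooled into a sample where needed, and since every culture began from pups, culture and the age of the donor cannot be told apart. Adult replicate 1 and slice 3 weeks replicate 1 carry the same study label, which differs from that of all other libraries. The study label thus splits the replicates of adult and of slice 3 weeks, and what it stands for is not stated.

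The tables held 19637 barcodes, of which 19059 were kept, and a library held between 61 (slice 1 week replicate 2) and 3799 cells (adult replicate 1). Median UMIs (unique molecular identifiers, each a counted transcript molecule) per cell ran from 1858 to 13966. Any 2 libraries shared at most 23 barcodes, or 2.94% of the smaller library. The label check by markers of microglia held in all groups, since at least 3 of 10 microglial markers were detected in 88.4% to 100% of the cells of each library. Neutrophil-like cells, defined by at least 3 neutrophil markers that outnumbered the microglial ones, made up 4.05% and 14.6% of slice 1 day cells and 24.3% and 1.64% of slice 1 week cells, and 0 cells in the adult, *in vitro* and slice 3 weeks libraries.

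One library stood apart. In slice 1 day replicate 1, 34 of 518 cells (6.56%) had a profile nearer to adult cells than to their own group, by a score over all genes other than the 8 and the mitochondrial genes. Slice 1 day replicate 2 had 0 such cells among 1014, the *in vitro* and slice 1 week libraries also had 0, and slice 3 weeks had 9 of 1153 and 50 of 3740. In the 34 cells the homeostatic receptor gene *P2ry12* stood at 1585 CPM (UMI counts as a share of the total, scaled to the usual common total), against 93.1 CPM in the other cells of the library, and none of their barcodes was listed in an adult library, while 2 of the 50 such cells of slice 3 weeks replicate 2 had a barcode listed in adult replicate 1. *Xist*, which is transcribed from the inactive X chromosome, stood at 1301 CPM in the 34 cells and 674 CPM in the others. What these cells are was not tested. Counts that use slice 1 day are given with and without them for the members, all relatives together and the homeostatic genes. Those of the separate lists of relatives are given with them only.

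**Figure D1:**
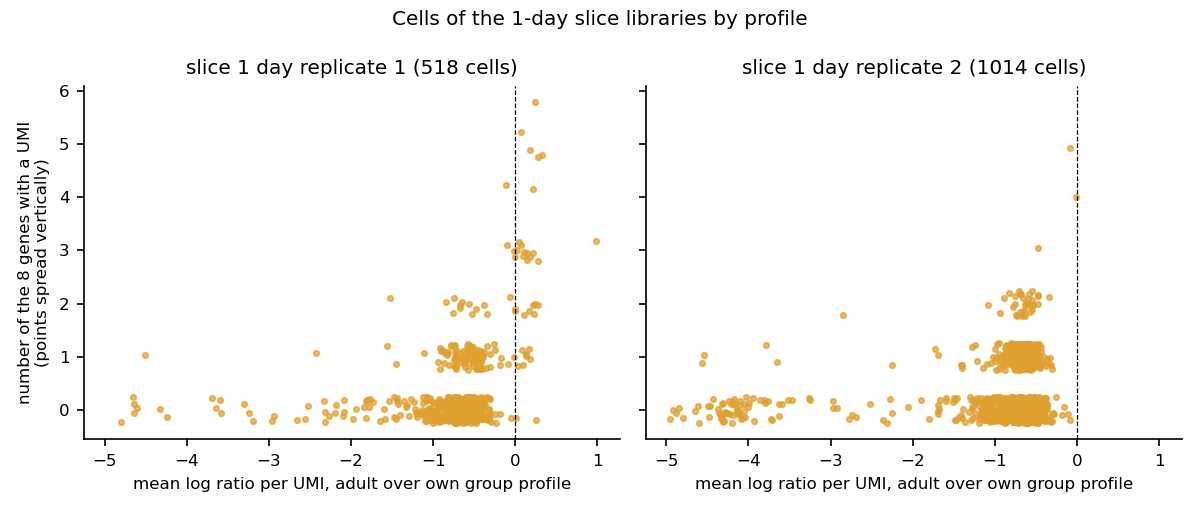
Cells of slice 1 day replicate 1 (518 cells) and replicate 2 (1014 cells), each point a cell. The horizontal axis is the mean log ratio per UMI of the adult profile to that of the cell's own group, above 0 for cells nearer to adult, and the vertical axis is the number of the 8 genes with a UMI, with points spread vertically so that they can be seen. In replicate 1, 34 cells lie above 0, among them the cells with the most of the 8 genes, and in replicate 2 none does.

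Promoters of the genes that moved in the slices are shown first, since *Slc2a5*, *Thrsp* and *Gp9* moved in the same direction between 1 day and 3 weeks and *Klk8* in the opposite one. RefSeq promoter windows (250 bases before to 50 after the start of the gene, build GRCm38.p6) were at hand for 6 of the 8 genes, out of 32851 windows in all. The windows of *Slc2a5* (chr4:150119094-150119393, plus strand), *Thrsp* (chr7:97417501-97417800, minus strand), *Gp9* (chr6:87777820-87778119, plus strand) and *Klk8* (chr7:43797327-43797626, plus strand) follow, 5′ to 3′ on the strand of the gene. Capitals mark matches, on either strand, to a GC box (GGGCGG, in 35.7% of all windows), an ETS-type core (GGAAGT, in 23.8%) or a MEF2-type site (CTANNNNTAG, in 3.69%).
Slc2a5: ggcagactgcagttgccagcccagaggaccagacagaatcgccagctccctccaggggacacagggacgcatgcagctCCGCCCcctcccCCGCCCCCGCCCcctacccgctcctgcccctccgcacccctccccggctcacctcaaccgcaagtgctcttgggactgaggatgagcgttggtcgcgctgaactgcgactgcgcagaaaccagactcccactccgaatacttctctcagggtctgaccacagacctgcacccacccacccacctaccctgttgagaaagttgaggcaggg
Thrsp: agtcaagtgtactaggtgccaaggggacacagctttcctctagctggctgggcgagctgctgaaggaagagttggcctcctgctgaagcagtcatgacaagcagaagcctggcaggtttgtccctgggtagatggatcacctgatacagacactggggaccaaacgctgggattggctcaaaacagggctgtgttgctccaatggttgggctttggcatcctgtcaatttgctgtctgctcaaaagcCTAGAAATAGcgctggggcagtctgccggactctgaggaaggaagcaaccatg
Gp9: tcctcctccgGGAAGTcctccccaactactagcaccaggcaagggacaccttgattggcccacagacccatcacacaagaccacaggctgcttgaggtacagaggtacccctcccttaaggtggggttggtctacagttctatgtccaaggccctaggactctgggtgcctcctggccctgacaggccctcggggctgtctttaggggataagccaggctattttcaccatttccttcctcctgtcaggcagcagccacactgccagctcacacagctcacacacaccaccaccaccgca
Klk8: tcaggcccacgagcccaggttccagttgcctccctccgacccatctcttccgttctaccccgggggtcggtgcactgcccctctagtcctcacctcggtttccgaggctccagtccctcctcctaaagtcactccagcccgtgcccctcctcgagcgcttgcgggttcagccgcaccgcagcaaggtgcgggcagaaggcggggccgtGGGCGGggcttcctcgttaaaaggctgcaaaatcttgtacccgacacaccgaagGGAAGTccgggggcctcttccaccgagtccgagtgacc

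The *Slc2a5* window held 3 GC boxes, the *Thrsp* window the MEF2-type letters, beginning 3 bases before the start, the *Gp9* window an ETS-type core and the *Klk8* window both an ETS-type core and a GC box. No motif searched was in all 4 windows. The windows for *Lrba* and *0610040J01Rik* held GC boxes, 2 and 1, and the latter also an E-box (CACGTG, in 7.15% of all windows). The AP-1 letters (TGACTCA), held by 5.20% of all windows, were not in any of the 6 members' windows. The C/EBP-type letters (TTGCNNAA), which 10.8% of all windows hold, had no match in these 6 either. The same was so of the TATA letters (TATAAA), held by 13.6%. GC content was 54.3% in *Thrsp*, 58.3% in *Gp9* and 65.3% to 71.7% in the other 4, beside a median of 52.7% over all windows. These are matches of letters only, and say nothing of which factor acts there.

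The 8 genes lie on 7 chromosomes of mm10. In the GENCODE annotation of that build (GRCm38), *Slc2a5* spans chr4:150119283-150144169, *Thrsp* chr7:97412938-97417730, *Gp9* chr6:87778072-87779768, *Klk8* chr7:43797577-43803826, *Upk1b* chr16:38773184-38800328, *Csmd3* chr15:47580637-48792063, *Lrba* chr3:86224680-86782692 and *0610040J01Rik* chr5:63812363-63899625. All are annotated as protein coding. Exons of *Lrba* overlap with the opposite-strand gene *Mab21l2* and exons of *Klk8* with *2310002F09Rik*, and neither of these had a count in the tables used here.

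*Slc2a5* stood at 689 and 608 CPM in the adult libraries (replicates 1 and 2, scaled by TMM factors), a mean of 648 ± 56.8 (SD, n = 2). It stood at 0.514 and 0.140 CPM *in vitro*, 16.3 and 2.68 CPM in slice 1 day, 48.4 and 48.6 CPM in slice 1 week and 53.8 and 54.3 CPM in slice 3 weeks. No 2 groups overlapped: adult was highest, slice 3 weeks and slice 1 week followed close together, and *in vitro* was lowest. The adult mean was 12-fold that of slice 3 weeks and 1982-fold that of *in vitro*, where both libraries together held 21 *Slc2a5* UMIs.

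*Thrsp*, the lipogenic gene, stood at 135 and 144 CPM in adult, 0.0321 and 0.0281 CPM *in vitro*, 4.72 and 0.515 CPM in slice 1 day and 17.5 and 14.0 CPM in slice 3 weeks. In slice 1 week it had 3 UMIs in replicate 1 and 0 in replicate 2, where a count of 0 allows up to 7.68 CPM. Its adult mean was 8.86-fold that of slice 3 weeks. With 2 UMIs over both *in vitro* libraries, the adult level was 4611-fold the *in vitro* one, with a counting interval of 1275 to 38092 (95%, exact).

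Among the surface proteins, *Upk1b* was nearest to absent in culture, at 133 and 155 CPM in adult and at 0 in both *in vitro* and both slice 1 week libraries. It stood at 2.10 and 0.103 CPM in slice 1 day and at 0.259 and 0.559 CPM in slice 3 weeks. Against the limit of 3 counts over both libraries of a group, adult *Upk1b* was at least 3139-fold higher than *in vitro* and at least 66.0-fold higher than slice 1 week. The 1 week bound is low because those 2 libraries held 385373 and 1080763 UMIs.

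*Gp9* stood at 114 and 88.1 CPM in adult, 0.0321 and 0.0281 CPM *in vitro*, 3.15 and 0.721 CPM in slice 1 day, 3.95 and 12.8 CPM in slice 1 week and 10.2 and 8.90 CPM in slice 3 weeks. The 1 week and 3 week libraries overlapped, and the adult libraries lay above all others. Markers of platelets and megakaryocytes, the cells for which *Gp9* is best known, summed to 3.66 and 2.32 CPM over 9 genes in adult, and *Gp1ba*, *Gp1bb*, *Gp5*, *Gp6* and *Tubb1* had 0 counts in both adult libraries. The same list summed to 2.56 to 17.0 CPM in the cultures, so it was not higher in the adult libraries.

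*Csmd3* stood at 68.9 and 62.7 CPM in adult, at 1 UMI over both *in vitro* libraries, at 1.31 and 0.309 CPM in slice 1 day and at 4.01 and 1.16 CPM in slice 3 weeks. It had 2 UMIs in slice 1 week replicate 1 and 0 in replicate 2. *Lrba*, the gene of vesicle traffic, stood at 194 and 172 CPM in adult, 2.22 and 1.85 CPM *in vitro*, 4.46 and 1.34 CPM in slice 1 day, 4.94 and 0 CPM in slice 1 week and 8.41 and 3.35 CPM in slice 3 weeks. The slice groups of *Lrba* overlapped with each other, and its highest culture library lay 20.4-fold below its lowest adult one. Markers of neurons, which are known to express *Csmd3*, summed to 1.54 and 2.06 CPM over 8 genes in adult, with *Syt1*, *Slc17a7* and *Stmn2* at 0 in both libraries.

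*Klk8* went a different way. It stood at 133 and 118 CPM in adult, at 15.7 and 9.07 CPM in slice 1 day, at 1.98 and 0 CPM in slice 1 week and at 1.94 and 1.26 CPM in slice 3 weeks. Among the cultures, slice 1 day was thus the highest, and both later times lay below it without overlap. *In vitro* had 0 UMIs of *Klk8* in both libraries, so adult was at least 2834-fold higher.

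*0610040J01Rik* stood nearest to its adult level in culture. It stood at 186 and 206 CPM in adult, 15.4 and 10.4 CPM *in vitro*, 26.2 and 31.5 CPM in slice 1 day, 60.3 and 51.2 CPM in slice 1 week and 48.0 and 38.7 CPM in slice 3 weeks. The adult mean was 15.2-fold that of *in vitro*, 6.80-fold that of slice 1 day (7.08-fold without the 34 cells), 3.52-fold that of slice 1 week and 4.53-fold that of slice 3 weeks. None of the 5 groups overlapped. Counted per cell rather than per UMI the gap was narrower, with 669 and 454 UMIs per 1000 cells in adult and 412 and 328 in slice 1 week, since adult cells yielded fewer UMIs each.

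For all 8 genes both adult libraries lay above every culture library, which the selection fixed and which was the case for 20.4% of all genes tested. Ranked by the lowest adult over the highest culture library among the 2745 genes with an adult mean of at least 50 CPM, the 8 took ranks 1 (*Upk1b*), 2 (*Lrba*), 3 (*Csmd3*), 5 (*Slc2a5*), 12 (*Thrsp*), 13 (*Klk8*), 15 (*Gp9*) and 61 (*0610040J01Rik*). Other genes of these libraries therefore stood between the members, and the group is not the complete set of such genes. Astrocyte markers were also higher in the adult libraries, summing to 129 and 139 CPM over 6 genes against 5.49 to 35.2 CPM in the cultures. So were T and NK cell markers (17.6 and 21.4 CPM over 7 genes, at most 8.89 in the cultures), and by less B cell markers (62.8 to 67.7 CPM over 5 genes, at most 61.3) and endothelial markers (30.4 and 32.3 CPM over 5 genes, at most 30.1). In adult *Cd3e*, *Cd3g*, *Trbc2*, *Nkg7*, *Ncr1*, *Ms4a1* and *Cldn5* of these lists were at 0 in both libraries. Haemoglobin and related erythroid genes summed to 1680 CPM in adult replicate 1 and 0 in adult replicate 2, and to 3324 CPM in slice 1 day replicate 1 against at most 1.03 CPM in the other cultures, while the 8 genes stood at like levels in both adult libraries. Border macrophage markers went the opposite way, summing over 6 genes to 7.08 and 11.9 CPM in adult, 4783 to 4875 CPM *in vitro* and 115 to 483 CPM in the slices. Monocyte markers summed over 5 genes to 4.51 to 7.18 CPM in adult, 31.7 to 41.6 CPM *in vitro*, 154 to 366 CPM in slice 1 day, 33.3 to 942 CPM in slice 1 week and 8.15 to 17.8 CPM in slice 3 weeks. The part of these other cell types in the result was not tested.

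**Figure D2:**
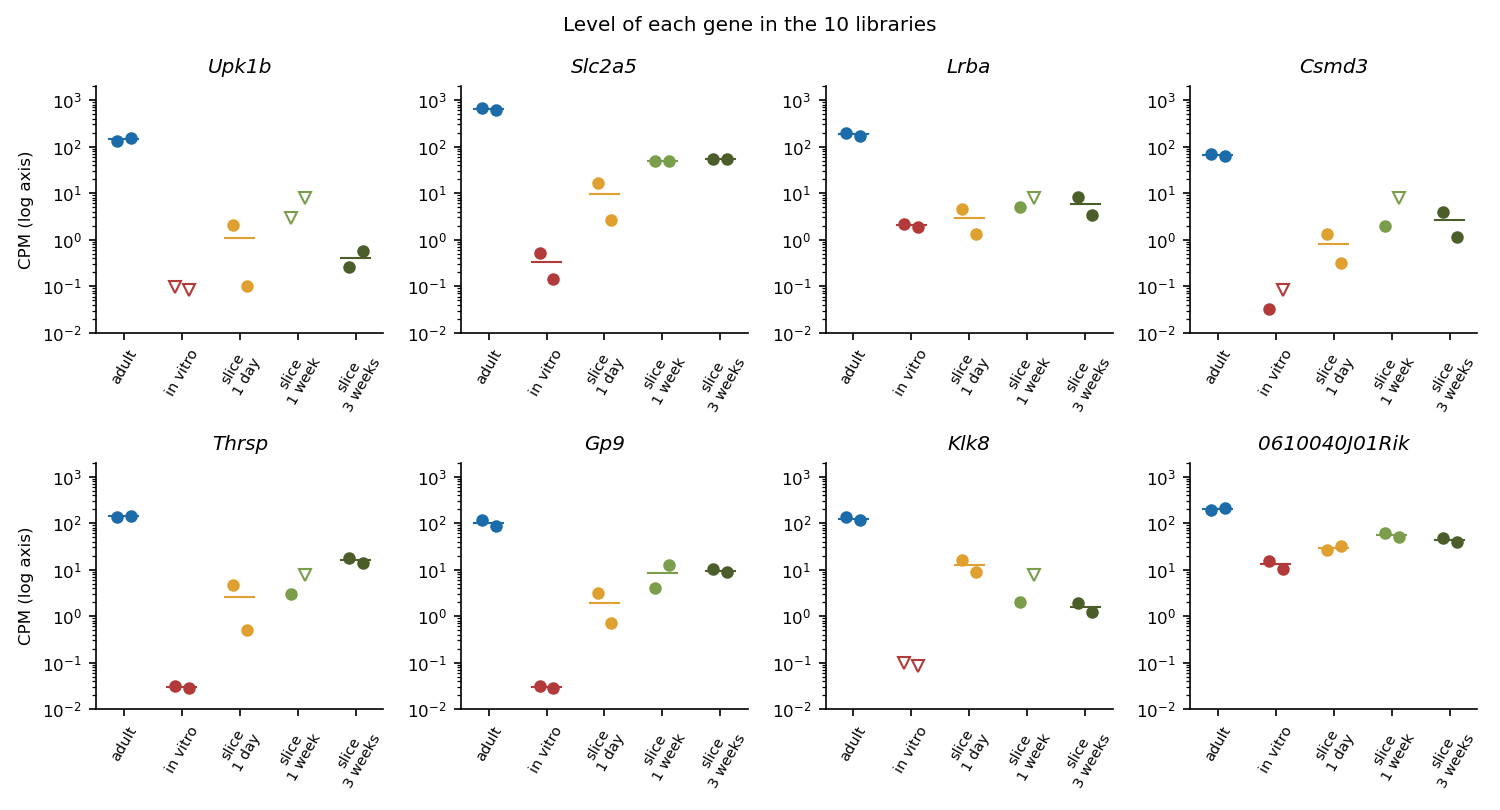
CPM of each of the 8 genes (log axis, TMM scaled) in the 10 libraries, with 2 points per group and a line at their mean where both have counts. An open triangle marks a library with 0 counts, drawn at the limit that 3 counts would give. The 2 adult libraries lie above all others in every panel, from 62.7 CPM upward, and the slice libraries of *Slc2a5*, *Thrsp* and *Gp9* lie higher at 3 weeks than at 1 day while those of *Klk8* lie lower.

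Within the adult libraries UMIs of the genes were spread over many cells. No cells of another lineage were found there in which free RNA could be gauged, so these are shares of cells with a UMI and not of cells that express a gene. After each cell was thinned to 1000 UMIs, *Slc2a5* was detected in 51.1% and 48.7% of adult cells (replicates 1 and 2) and *Csmd3* in 7.39% and 7.19%, with the other 6 between 9.66% and 20.9%. Without thinning, *Slc2a5* was detected in 3277 of 3799 and 2424 of 3527 cells. The variance of the thinned counts over their mean, which is 1 for counting noise alone, lay between 0.964 and 1.16 for the 8 genes in the adult libraries. Pearson's r between pairs of the genes across adult cells lay between −0.0311 and 0.0462 over 28 pairs in each library, which is a description of sparse counts from the same cells. *P2ry12* was detected in 99.1% and 99.5% of thinned adult cells, so nearly all the cells carried microglial transcripts.

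A thinned adult cell showed on average 1.48 and 1.46 of the 8 genes. At least 3 were seen in 16% and 15.1% of adult cells, and none in 18.2% and 18.1%. *In vitro*, none of the 8 was seen in 98.1% and 98.5% of cells, and no cell showed more than 1. In slice 1 day none was seen in 93.4% and 95.9% of cells, in slice 1 week the shares were both 93.2%, and slice 3 weeks had 87.3% and 88.5%. The share of cells with a *Slc2a5* UMI was 5.29% and 5.83% in slice 3 weeks (exact 95% intervals 4.07% to 6.74% and 5.10% to 6.63%) and 0.0414% and 0.112% *in vitro*. Intervals and limits cover counting error only.

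**Figure D3:**
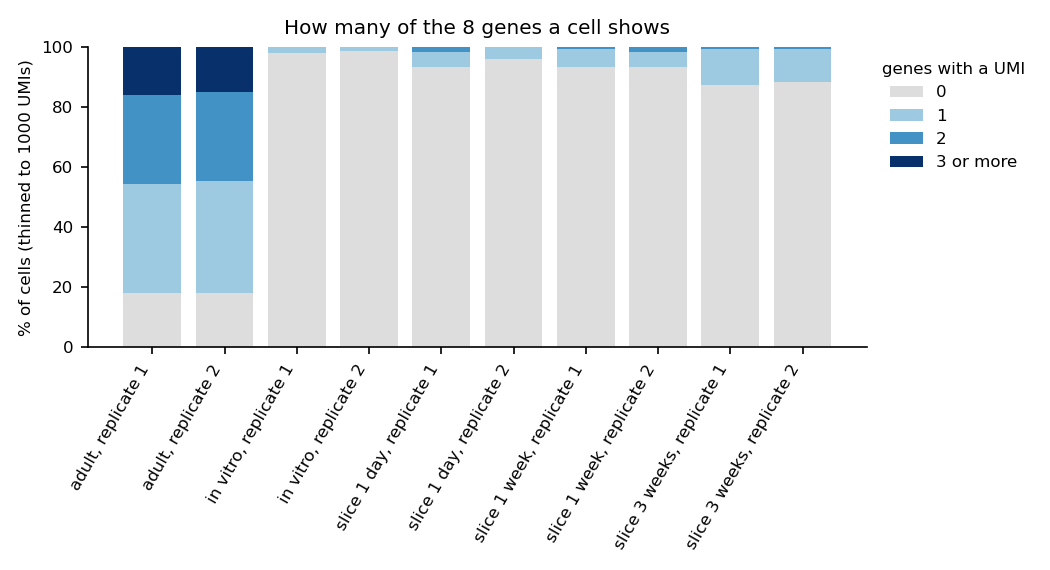
Share of cells (%) in each of the 10 libraries that showed 0, 1, 2 or at least 3 of the 8 genes after thinning every cell to 1000 UMIs. In the 2 adult libraries 18.2% and 18.1% of cells showed none, against 87.3% to 98.5% in the culture libraries.

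Free RNA was gauged in the neutrophil-like cells, on the assumption, not tested here, that they lack these genes. In slice 1 day replicate 2, 148 such cells (median of 6099 UMIs) held *Klk8* UMIs in 1.35% of cells, against 7.74% of the other 866 cells (median of 8902 UMIs). For *Slc2a5* the shares were 0 of 148 cells, which allows up to 2.46% by the exact interval, and 2.08%. The exact interval of the *Klk8* share in neutrophil-like cells, 0.164% to 4.80%, lay below that of the other cells, 6.05% to 9.72%. After thinning the *Klk8* shares were 0 of 148 cells, which allows up to 2.46%, and 1.15% (10 cells). *0610040J01Rik* was seen in 10.1% of neutrophil-like and 26.3% of other cells of this library, and after thinning in 3.38% (5 cells) and 2.31% (20 cells). Over all UMIs it stood at 15.6 CPM in the neutrophil-like and 34.2 CPM in the other cells, so the thinned shares and the CPM gave opposite orders and none is read from them. For the other 5 genes no more than 1 neutrophil-like cell of this library held a UMI, and no more than 11 of the other cells.

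The cultures were compared with each other to ask whether these genes stood higher in slice culture than in mixed glial culture. These tests use libraries in which the 8 genes were chosen for being low, and the adult libraries entered the shared estimate of the spread and the filter on low counts. With the culture libraries alone 7 of the 8 passed that filter and *Upk1b* did not, so it is left out of the counts of calls against *in vitro* below. Genes were called at FDR < 0.05 and a fold change above 1.5 in edgeR. Of the other 7, 7 were called lower *in vitro* than in slice 3 weeks and 0 higher, where 19.9% of all genes tested were called lower and 13.3% higher. The median log2 fold change of the 7 was −7.30, and that of all genes −0.10.

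*Slc2a5* was lower *in vitro* than in slice 3 weeks by a log2 fold change of −7.37 ± 0.72 (SE, edgeR adjusted p = 3.66e-05), *Thrsp* by −8.63 ± 0.71 (adjusted p = 1.32e-05) and *Gp9* by −7.91 ± 0.59 (adjusted p = 6.86e-06). *Csmd3* fell by 6.49 on the log2 scale (SE 0.95, adjusted p = 0.000525). With so few *in vitro* UMIs these fits depend on the prior count, and the ratios of the pooled counts were 499 for *Thrsp* (exact interval 137 to 4129), 309 for *Gp9* (84.6 to 2562) and 128 for *Csmd3* (22.1 to 5147). *Klk8*, at 0 *in vitro*, was at least 32.0-fold lower than in slice 3 weeks (adjusted p = 0.000158). *Upk1b* had 0 UMIs *in vitro*, at least 10.7-fold below slice 3 weeks. *0610040J01Rik* was lower by −1.74 ± 0.20 (adjusted p = 0.000121) and *Lrba* by −1.40 ± 0.45 (adjusted p = 0.0307).

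The call of *Lrba* was the least firm of the 7. *Lrba* was no longer called without slice 3 weeks replicate 1 (log2 fold change −0.64, edgeR adjusted p = 0.195), without *in vitro* replicate 1 or 2 (adjusted p = 0.0942 and 0.166), with the study label in the fit (adjusted p = 0.0606) or with the culture libraries alone (adjusted p = 0.0760), where 6 of the 7 were called. *Upk1b* entered the fit of all libraries only through its adult counts, so its call there is not read. Counted per cell, *0610040J01Rik* and *Lrba* were not called (adjusted p = 0.0820 and 0.357).

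Slice 1 day was compared with *in vitro* in the same way. Leaving out *Upk1b* again, 6 of 7 genes were called lower *in vitro* than in slice 1 day and 0 higher, where 18.6% of all genes tested were called lower and 13.3% higher. *Klk8* was at least 244-fold lower *in vitro* (edgeR adjusted p = 6.92e-06). *Upk1b* had 0 UMIs *in vitro*, at least 14.8-fold below slice 1 day. With the culture libraries alone 6 of the 7 were called as well. *Slc2a5* was lower by −4.66 ± 0.76 on the log2 scale (adjusted p = 0.00107) and *0610040J01Rik* by −1.17 ± 0.21 (adjusted p = 0.00167). Counted per cell, *0610040J01Rik* was not called (−0.56, adjusted p = 0.210). The neutrophil-like cells of slice 1 day replicate 2 were gauged above. Before depth was set equal, the shares of *Klk8* and *0610040J01Rik* lay apart from those of these cells beyond their exact intervals. After thinning *Klk8* was seen in 0 of 148 neutrophil-like and 10 of 866 other cells (1.15%), which does not lie apart. *0610040J01Rik* showed the opposite order after thinning. The shares of the other 4 called members did not lie apart before thinning. *Lrba* was the member not called, at 2.22 and 1.85 CPM *in vitro* against 4.46 and 1.34 CPM.

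This comparison leaned on the 34 cells nearer to the adult profile. They held 7 of the 8 *Upk1b* UMIs of slice 1 day replicate 1, 44 of 62 for *Slc2a5*, 14 of 18 for *Thrsp*, 10 of 12 for *Gp9*, 11 of 17 for *Lrba* and 4 of 5 for *Csmd3*. They held fewer of the *Klk8* UMIs (18 of 60) and *0610040J01Rik* UMIs (13 of 100). Without such cells in any library 5 of the 7 genes were called lower *in vitro*, where 18.6% of all genes were called lower and 13.8% higher, *Csmd3* no longer (edgeR adjusted p = 0.0999), and *Slc2a5* differed by −3.42 (adjusted p = 0.000293). *Upk1b* then had 1 UMI in each slice 1 day library. *Csmd3* was also not called without slice 1 day replicate 1 as a whole (log2 fold change −3.75). The same was so without *in vitro* replicate 1 or 2 (−5.80 and −3.78).

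During slice culture the genes parted. Between 1 day and 3 weeks *Thrsp* rose by 3.05 ± 0.54 on the log2 scale (SE, edgeR adjusted p = 0.00265), *Slc2a5* by 2.71 ± 0.58 (adjusted p = 0.00660) and *Gp9* by 2.66 ± 0.46 (adjusted p = 0.00232), while *Klk8* fell by 2.99 (SE 0.34, adjusted p = 0.000426). Thus 3 members were called higher, where 13.9% of all genes were, and 1 lower, where 12.8% were. *0610040J01Rik* (0.57 ± 0.20, adjusted p = 0.0587), *Csmd3* (1.83 ± 0.79, adjusted p = 0.106), *Lrba* (1.18 ± 0.57, adjusted p = 0.141) and *Upk1b* (−0.56 ± 0.96, adjusted p = 0.699) did not pass.

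Without the cells nearer to the adult profile the rises were larger, at 4.49 for *Thrsp*, 3.93 for *Slc2a5* and 3.78 for *Gp9*, and the fall of *Klk8* was much the same at −2.84. *Csmd3* and *Lrba* were then also called higher (2.82 and 1.88, edgeR adjusted p = 0.0298 and 0.0202), and *Upk1b* turned from −0.56 to 1.12 without passing (adjusted p = 0.366). In the other 484 cells of slice 1 day replicate 1 *Thrsp* stood at 1.15 CPM and *Slc2a5* at 5.15 CPM, against 0.524 and 2.73 in replicate 2, so the replicates of 1 day lay closer together. Without the neutrophil-like cells the same 4 genes were called, with *Klk8* at −3.07 and *Thrsp* at 3.00.

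**Figure D4:**
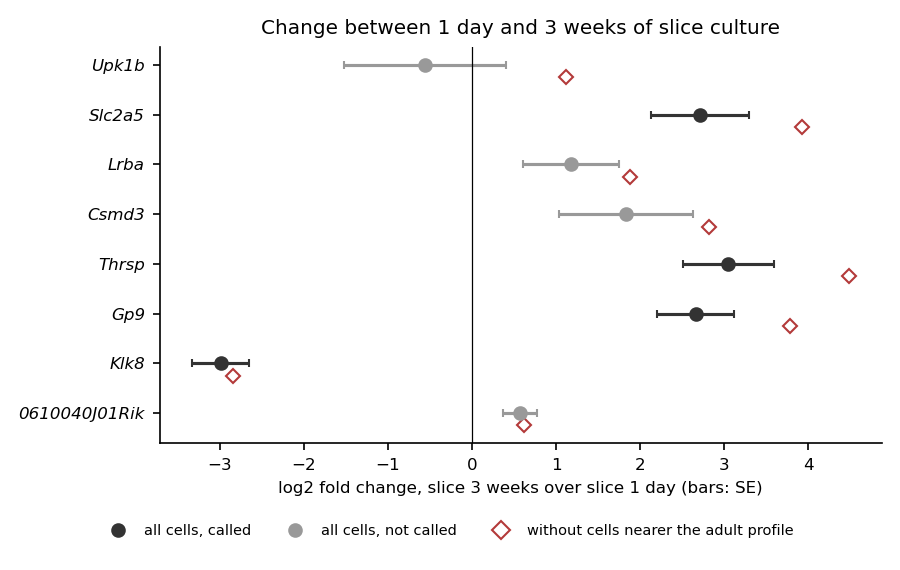
Fitted log2 fold change of slice 3 weeks over slice 1 day for the 8 genes, filled points with SE bars (dark where called, grey where not), and the same fit without cells nearer to the adult profile (open diamonds). *Slc2a5*, *Thrsp* and *Gp9* lie between 2.66 and 3.05 and move further right without those cells, *Klk8* lies at −2.99, and *Upk1b* changes side without passing the test.

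At 1 week *Slc2a5* (2.55 ± 0.68, edgeR adjusted p = 0.0396) and *0610040J01Rik* (0.97 ± 0.25, adjusted p = 0.0349) were called higher than at 1 day and *Klk8* lower (−3.05 ± 0.78, adjusted p = 0.0389), where 4.91% of all genes were called higher and 5.25% lower. Without the cells nearer to the adult profile these 3 were called (3.79, 1.02 and −2.82, adjusted p = 0.000710, 0.0311 and 0.0285), and *Gp9* too (3.27, adjusted p = 0.0111), where 5.92% of all genes were called higher and 5.85% lower. The 3 calls rest on 148 and 61 cells at 1 week and were all lost without slice 1 week replicate 1, without slice 1 week replicate 2 or with the culture libraries alone. *Slc2a5* was not called without slice 1 day replicate 2 (adjusted p = 0.0717), *Klk8* not without slice 1 day replicate 1 (adjusted p = 0.0577), and *0610040J01Rik* not without either (adjusted p = 0.0985 and 0.132). *Slc2a5* was not called in DESeq2 (2.39, adjusted p = 0.0534), and *0610040J01Rik* not by library size alone (0.87, edgeR adjusted p = 0.0536) or per cell (0.59, adjusted p = 0.399). The study states fewer microglia for its 1 week samples, after steps not repeated here. Between 1 week and 3 weeks 0 of the 8 were called by edgeR or DESeq2, where 2.23% of all genes were called higher and 3.49% lower at 3 weeks. *Thrsp* differed by 2.87 ± 1.02 without being called (edgeR adjusted p = 0.133).

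Within 3-week slices all 8 genes had a higher level in cells that also held *P2ry12*, in both libraries. Counting intervals lay apart in both for 4 of them (*Slc2a5*, *Thrsp*, *Gp9* and *0610040J01Rik*). The same shares over all genes were not computed, so nothing particular to the 8 is read from these counts. Some rest on few UMIs in cells with and without *P2ry12*. *Upk1b* had 2 and 0 in replicate 1, and *Klk8* had 14 and 13 in replicate 2. When cells were split on a *P2ry12* UMI after thinning to 1000 UMIs, 49.7% of cells of replicate 1 and 43.0% of replicate 2 held one. *Slc2a5* stood at 85.5 CPM in the cells with *P2ry12* and 24.6 in those without in replicate 1, and at 97.2 and 21.7 in replicate 2. The 8 genes together stood at 204 and 88.3 CPM in replicate 1 and at 192 and 67.3 in replicate 2. *Lrba* differed in replicate 1 (12.2 and 4.83) more than in replicate 2 (3.44 and 3.08, with overlapping intervals of 2.33 to 4.88 and 2.21 to 4.18), where 31 of its UMIs lay in cells with *P2ry12* and 41 in cells without. Each library gives 1 value per class, so no test was made. All 8 together in the cells with *P2ry12* lay below *Slc2a5* alone in the adult libraries.

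Cells with a *Gpnmb* UMI, a gene of phagocytic macrophages, were 9.11% and 6.68% of 3-week slice cells and 0 of the thinned adult cells. In them the 8 genes stood at 62.7 and 40.1 CPM, against 151 and 124 in the cells without. The median depths of the classes were close, 6634 and 6275 UMIs per cell with *Gpnmb* and 6062 and 5215 without.

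**Figure D5:**
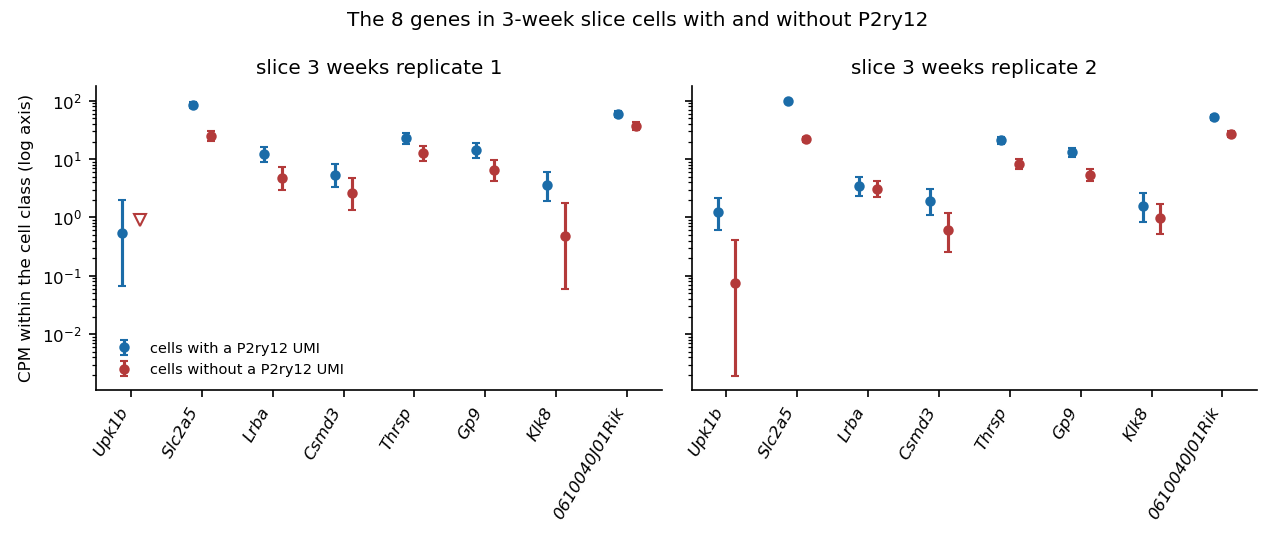
CPM within each class of cells (log axis) of the 8 genes in slice 3 weeks cells with (blue) and without (red) a *P2ry12* UMI after thinning, 1 panel per library, with exact 95% counting intervals. An open triangle marks 0 UMIs, drawn at the upper bound of its interval. *Slc2a5* stands at 85.5 and 97.2 in cells with *P2ry12* and at 24.6 and 21.7 in cells without.

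The known partners and relatives of the 8 genes were compared with adult, from lists of 66 genes of which 51 had a count and 31 were tested. *In vitro* 11 were called higher and 9 lower than adult, where 22.4% and 28.5% of all genes were. In slice 1 day 9 were higher and 8 lower (24.9% and 25.3% of all genes), and in slice 3 weeks 11 were higher and 4 lower (17.9% and 17.5%). The relatives thus moved in both directions, and their median log2 fold changes were 0.14, 0.21 and 0.22, beside −0.11, −0.06 and −0.03 for all genes. Without the cells nearer to the adult profile 9 were higher and 8 lower in slice 1 day as well, with a median of 0.17. These 3 comparisons use the same adult libraries.

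Other hexose transporters moved in both directions. *Slc2a1*, the general glucose transporter GLUT1, stood at 35.9 and 32.3 CPM in adult, 13 and 15 CPM *in vitro*, 202 and 180 CPM in slice 1 day and 91.6 and 88.3 CPM in slice 3 weeks. It was called lower than adult *in vitro* (log2 fold change −1.29 ± 0.19, edgeR adjusted p = 0.000233) and higher in slice 3 weeks (1.40 ± 0.19, adjusted p = 0.000300). *Slc2a8*, another sugar transporter, was highest in adult like *Slc2a5*, at 58.7 and 62.3 CPM, with a mean of 35.4 ± 0.598 CPM (SD, n = 2) *in vitro*, 16.3 and 17.3 CPM in slice 1 day and 52.4 and 53.4 CPM in slice 3 weeks. It was called lower than adult *in vitro* (−0.77 ± 0.13, adjusted p = 0.000428) and in slice 1 day (−1.84 ± 0.14, adjusted p = 4.23e-06), and rose between 1 day and 3 weeks (1.65 ± 0.14, adjusted p = 8.16e-05), where it was not called against adult (adjusted p = 0.251). *Slc2a12*, at 2.12 and 1.80 CPM in adult, was also called lower *in vitro* (−1.22 ± 0.47, adjusted p = 0.0478). *Khk*, the ketohexokinase that phosphorylates fructose, was called lower *in vitro* (−1.36 ± 0.15, adjusted p = 3.30e-05), in slice 1 day (−1.41 ± 0.16, adjusted p = 4.52e-05) and in slice 3 weeks (−0.64 ± 0.15, adjusted p = 0.00687). Of the 10 tested genes of sugar transport and fructose use, 7 were called higher and 1, *Khk*, lower in slice 3 weeks, and 4 higher and 5 lower *in vitro*, where 17.9% and 17.5% of all genes were called in slice 3 weeks and 22.4% and 28.5% *in vitro*. The same list had 4 higher and 2 lower in slice 1 day (24.9% and 25.3% of all genes). The call of *Khk* in slice 3 weeks was lost without adult replicate 1 (adjusted p = 0.0670) or slice 3 weeks replicate 1 (−0.43, below the fold required), and that of *Slc2a12* without any 1 of the adult and *in vitro* libraries (adjusted p = 0.0988 to 0.314).

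Around *Thrsp*, the lipid regulator gene *Mlxipl*, which encodes the carbohydrate-responsive factor ChREBP, stood at 131 and 142 CPM in adult, 0.899 and 0.477 CPM *in vitro*, 12.6 and 11.5 CPM in slice 1 day and 83.6 and 55.8 CPM in slice 3 weeks. It was called lower than adult in all 3 comparisons, by −7.63 ± 0.30 (edgeR adjusted p = 3.87e-08), −3.51 ± 0.25 (adjusted p = 2.86e-06) and −0.98 ± 0.21 (adjusted p = 0.00456). *Mid1ip1*, the relative of *Thrsp*, was called lower *in vitro* and in slice 1 day (−1.31 ± 0.13 and −1.25 ± 0.13, adjusted p = 1.33e-05 and 2.94e-05). *Fasn*, the fatty acid synthase, was called higher in both (1.71 ± 0.32 and 1.51 ± 0.35, adjusted p = 0.00108 and 0.00399), the latter not without slice 1 day replicate 2 (adjusted p = 0.0585). The desaturase gene *Scd2* was lower *in vitro* (−4.17 ± 0.28, adjusted p = 1.12e-06) and higher in slice 3 weeks (2.73 ± 0.23, adjusted p = 1.69e-05). Of the 12 tested genes of this lipid list, 5 were called higher and 3 lower *in vitro*. The counts were 4 and 2 in slice 1 day, and 2 and 1 in slice 3 weeks. Over all genes the shares were 22.4% and 28.5%, 24.9% and 25.3%, and 17.9% and 17.5%. *Me1* and *Nr1h3* were among those higher in slice 1 day without the cells nearer to the adult profile (5.18 and 3.01).

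The partners of the surface proteins were near absent. Of 5 other uroplakins, 4 partners of glycoprotein IX and 2 other CUB and sushi domain genes none passed the filter, and *Gp1ba*, *Gp1bb* and *Gp5* together had 0 adult UMIs beside 2235 for *Gp9*. Of the 12 other kallikreins listed, *Klk9* had 6 UMIs in adult and 1 in slice 1 day, *Klk6* had 4 in slice 3 weeks, and the rest had 0 in all groups. *F2r*, a protease-activated receptor, was called higher than adult in slice 1 day and slice 3 weeks, with 1 UMI in adult, 19 in slice 1 day and 51 in slice 3 weeks, and was not called without replicate 2 of slice 1 day or of slice 3 weeks (edgeR adjusted p = 0.0792 and 0.0558). Of the 8 BEACH domain relatives of *Lrba*, 2 were called higher and 1 lower *in vitro*, 0 and 4 in slice 1 day, and 1 and 2 in slice 3 weeks. Over all genes these shares were 22.4% and 28.5%, 24.9% and 25.3%, and 17.9% and 17.5%. *Nbeal2* was called lower in slice 1 day (−1.24 ± 0.35, edgeR adjusted p = 0.0116) and slice 3 weeks (−2.27 ± 0.35, adjusted p = 0.000604), and *Nbea* was called lower *in vitro* (−1.94 ± 0.33, adjusted p = 0.000563). *Wdr81* and *Nsmaf* were also called lower in slice 1 day (−0.86 ± 0.25 and −0.71 ± 0.21, adjusted p = 0.0146 and 0.0149), and *Nsmaf* in slice 3 weeks (−0.63 ± 0.20, adjusted p = 0.0276). The calls upward were *Lyst*, the gene of lysosomal traffic, in slice 3 weeks (2.87 ± 0.49, adjusted p = 0.00110, at 11.1 and 39.9 CPM against 3.74 and 3.35 CPM in adult), and *Wdfy3* and *Wdfy4* *in vitro* (0.90 ± 0.19 and 0.71 ± 0.24, adjusted p = 0.00234 and 0.0287), while *Wdfy4* was lower in slice 1 day (−1.24 ± 0.28, adjusted p = 0.00386). *Lyst* differed by 1.69 without slice 3 weeks replicate 2 and by 3.52 without replicate 1, and was called in both. The slice 1 day calls of *Nbeal2* and *Wdr81* were lost without adult replicate 1 or either slice 1 day library, and that of *Wdfy4* without adult replicate 1 (adjusted p = 0.0519). The calls of *Nsmaf* were lost without any 1 library of slice 1 day or adult, and in slice 3 weeks also without its replicate 2. The *in vitro* call of *Wdfy4* was lost without adult replicate 2 or either *in vitro* library.

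Homeostatic microglial genes were the nearest comparison. All 15 listed were called lower than adult *in vitro* and in slice 1 day, and 11 in slice 3 weeks, with medians of −5.06, −3.15 and −1.11. Over all genes 28.5%, 25.3% and 17.5% were called lower. Without the cells nearer to the adult profile all 15 were also called lower in slice 1 day, with a median of −3.21, where 25.8% of all genes were called lower. *P2ry12* was lower than adult in slice 3 weeks by −2.95 ± 0.30 (edgeR adjusted p = 5.98e-05), beside the list median of −1.11. Mean levels in adult and slice 3 weeks were 6942 and 898 CPM for *P2ry12*. They were 648 and 54.1 CPM for *Slc2a5*, and 139 and 15.7 CPM for *Thrsp*. Between 1 day and 3 weeks 14 of the 15 were called higher and 0 lower, beside 3 higher and 1 lower of the 8. Over all genes 13.9% were called higher and 12.8% lower. Without those cells the counts were 14 and 0, beside 5 and 1, where 14.6% of all genes were called higher and 13.2% lower.

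The genes most like the 8 across the 10 libraries, by the mean of Pearson's r on log2(CPM + 1), were *Rnf167* (0.93), *Erf* (0.93), *B4galt4* (0.93), *Klhdc8b* (0.93) and *Foxn3* (0.92). The single most similar gene was *P3h2* for *Slc2a5* (0.99), *Ak1* for *Thrsp* (0.99), *Chst8* for *Upk1b* (1.00), *Rab3ip* for *Gp9* (0.99), *Arhgap27os3* for *Csmd3* (1.00), *Ppm1l* for *Lrba* (1.00), *Bend5* for *Klk8* (0.99) and *Arfgap2* for *0610040J01Rik* (0.99). Such values are led by the gap between the adult and the other libraries. Over the 8 culture libraries alone, r between *Slc2a5* and *Gp9* was 0.96 while that between *Gp9* and *Klk8* was 0.05, with the libraries differing in depth as given above.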

How the data were processed

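The authors deposited a table of raw UMI counts for each of the 10x Genomics 3′ libraries, with genes and cell barcodes. The submitters' processing notes name Cell Ranger 1.3.0 and mm10, and the annotation release is not given in the sources used here. A gene missing from a table was taken as 0. Such counts come from transcript ends and do not scale with transcript length. The members and lists were chosen with earlier results of these data known.

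The study's limits on cells (at most 5% of UMIs mitochondrial, at least 400 genes, at most 30000 UMIs) took out 578 barcodes. Totals ran from 385373 to 39689540 UMIs per library, so that a count of 0 allows between 0.0842 and 7.68 CPM (3 counts). Counts were summed per library and fitted in edgeR 4.0.16 (glmQLFit, glmQLFTest, TMM, filterByExpr with a minimum of 10) over 5 groups, in R 4.3.3. Calls needed FDR < 0.05, Benjamini-Hochberg adjusted over 12157 genes, and a fold change above 1.5, as in the study. The biological coefficient of variation was 18.3%. CPM are TMM scaled, and CPM of a class of cells is taken over the UMIs of that class, without TMM. The fit was tested on simulated data with known changes. Alternatives included DESeq2 1.42.0, other scalings, all barcodes, the study label and a replicate block. Fits without cells nearer to the adult profile or without neutrophil-like cells, by library size alone and per cell were chosen after seeing the data. Named relatives are list genes called in at least 1 adult comparison. Genes shown as similar are the 5 with the highest mean r and each member's closest gene. The partners with few UMIs were named after their values were seen. The study calls the 2 samples of a group independent, and the labels do not say whether they differ in animals, cultures or preparation, so p-values measure the spread between these libraries. A two-sided exact permutation test of 2 against 2 cannot go below 0.333, so values with 1 number per library have no test. Thinning drew UMIs without replacement with a fixed seed, and no doublet caller was run. Some listed genes are not reported here.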

Additional observations from a re-analysis of the deposited data

How the results depend on the processing

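Of 22 calls of members between culture groups, 13 were kept under every alternative run and none changed sign when called. The 22 include the calls of *Upk1b* against *in vitro*, though it passed the filter only with the adult libraries. Those calls are not among the 13. Leaving out *Upk1b*, 7 genes were called *in vitro* against slice 3 weeks and 6 against slice 1 day. Without the cells nearer to the adult profile the counts were 7 and 5. Between slice 3 weeks and slice 1 day, 4 were called, 4 to 6 with 1 library left out and 7 with no filter on low counts. *Upk1b* in that comparison, not called in any of them, turned to 1.12 without the cells nearer to the adult profile and ranged from −2.12 to 2.10 with 1 library left out. Between slice 1 week and slice 1 day the 3 calls became 0 with the culture libraries alone and 0 to 2 with 1 library left out. Between slice 3 weeks and slice 1 week the count of 0 became 1 with no filter, without the cells nearer to the adult profile and with UMIs per cell, and stayed at 0 with 1 library left out. The relatives called against adult were 17 in slice 1 day (10 to 16 with 1 library left out), 20 *in vitro* (14 to 16) and 15 in slice 3 weeks (10 to 14). Why these counts moved was not tested.

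The median, over the 8 genes, of the highest culture group in percent of the adult mean was 8.91%, and it was 7.76% by library size alone, 18.7% by UMIs per cell, 8.21% without the cells nearer to the adult profile and 8.13% to 9.71% with 1 adult library left out. By UMIs per cell the median log2 fold change of all genes moved from −0.10 to 0.97 for *in vitro* against slice 3 weeks, because *in vitro* cells held more UMIs, and by library size alone to −0.20. The median share of adult cells with a UMI of a member was 13.9% at 1000 UMIs, 23.3% at 1800 UMIs and 29.3% with no thinning. Same-numbered replicates did not deviate together (correlations between −0.13 and 0.12). With the replicate block and *Upk1b* among the genes counted, the members called were 8, 7, 4, 3 and 0 in the 5 comparisons. The order is *in vitro* against slice 3 weeks and slice 1 day, then the slice comparisons as above. The relatives called were 17 *in vitro*, 17 in slice 1 day and 16 in slice 3 weeks. Depth limits the slice 1 week values most.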

Other observations

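The slice replicates differed in the sex-linked genes *Xist* and the Y-linked *Ddx3y*, *Uty*, *Kdm5d* and *Eif2s3y*, taken here without the cells nearer to the adult profile. The Y-linked genes summed to 0.0807 and 0.147 CPM in adult, with *Xist* at 1330 and 1256 CPM, while *in vitro* held both (*Xist* at 298 and 383 CPM, Y-linked at 58.0 and 35.9 CPM). Slice 1 day replicate 1, slice 1 week replicate 1 and slice 3 weeks replicate 2 had 0 Y-linked UMIs, and *Xist* stood at 674, 730 and 1166 CPM. In slice 1 day replicate 2, slice 1 week replicate 2 and slice 3 weeks replicate 1 the Y-linked genes summed to 121, 117 and 113 CPM, and *Xist* stood at 2.83, 0 and 0.385 CPM. In slice 3 weeks replicate 1, 6 *Xist* UMIs lay in the 9 cells nearer to the adult profile and 3 in the other 1144 cells. Whether sex bears on the 8 genes was not tested.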
